A study of Mus musculus with 2 samples.

Results

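The genes described here are serum response factor (Srf) and 9 genes of the actin cytoskeleton (Actb, Actg1, Acta2, Tpm1, Tagln, Cnn1, Vcl, Flna and Myh9), followed on microarrays through a serum stimulus in mouse embryonic fibroblasts with and without THOC5. They were selected by gene name among all non-control probes of the array, which gave 10 of 28233 genes and 20 of 35777 probes that carry a gene symbol, or 29 of 43020 spots. Thoc5 encodes a subunit of the THO complex, which acts in the export and processing of mRNA. The study asked how the early response to serum depends on it. There were 2 dual-color Agilent arrays. Total RNA of unstimulated cells was labelled with Cy3 (green) and total RNA of cells given fetal calf serum (FCS) for 1 h with Cy5 (red).

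Both arrays used 1 immortalized line of MEF cells, Rosa26ERT2 Cre: THOC5 (flox/flox), on a C57BL/6 x B6:129 Ola background. Control cells carried the floxed alleles and the Cre, were labelled wildtype and had no tamoxifen on their label. THOC5-depleted cells were labelled THOC5 knockdown after 2 d of tamoxifen, which activates the Cre. The cell culture methods give a shorter treatment followed by growth medium. Control cells therefore lacked the drug, and effects of tamoxifen, of active Cre and of THOC5 loss cannot be told apart. There was 1 array per condition and no dye swap was used here, so no value has a replicate error and no test between conditions was made. A gene was counted as risen or fallen on an array when its ratio reached 1.5-fold, which is a limit of size only.

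SRF is a transcription factor that binds a short A/T-rich element called the CArG box. It works with 2 families of cofactors, the ternary complex factors (Elk1, Elk3, Elk4), which answer MAP kinase signalling and drive immediate early genes such as Fos, and the myocardin-related factors (Mkl1, Mkl2), which are held by monomeric actin and released when actin filaments form. Genes of actin and of its binding proteins are known targets of the second branch, and Srf itself is both a regulator and a target.

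The element is shown here because it is the sequence that SRF binds. The CArG box was searched for in RefSeq promoters of GRCm38.p6, from 250 bases before to 50 bases after the start of transcription. The motif reads the same on both strands. Of the 10 genes, 8 matched a promoter by symbol, and Actb and Tagln were not among them. An exact box was found for 3 of these 8 genes, Srf, Actg1 and Vcl, while 1.63% of 32851 promoters held at least 1. The Srf promoter held 2 boxes, starting at -82 and -62, which was the case in 0.0183% of promoters. The box of Actg1 started at -90 and that of Vcl at -227. Allowing 1 base to differ, 6 of the 8 genes had a match, against 21.1% of all promoters. The 250 bases before each start are printed for these 3 genes, 5′ to 3′ on the strand of the gene, with exact boxes in capitals. A match is a run of letters and not a measured binding site. Srf lies on the minus strand at chr17:46556163-46556412, Actg1 on the minus strand at chr11:120348496-120348745 and Vcl on the plus strand at chr14:20929148-20929397.
Srf: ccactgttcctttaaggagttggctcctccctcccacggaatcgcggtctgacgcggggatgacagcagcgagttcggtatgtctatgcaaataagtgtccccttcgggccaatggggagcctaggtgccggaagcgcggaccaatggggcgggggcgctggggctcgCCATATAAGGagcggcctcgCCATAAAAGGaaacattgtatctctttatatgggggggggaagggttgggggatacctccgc
Actg1: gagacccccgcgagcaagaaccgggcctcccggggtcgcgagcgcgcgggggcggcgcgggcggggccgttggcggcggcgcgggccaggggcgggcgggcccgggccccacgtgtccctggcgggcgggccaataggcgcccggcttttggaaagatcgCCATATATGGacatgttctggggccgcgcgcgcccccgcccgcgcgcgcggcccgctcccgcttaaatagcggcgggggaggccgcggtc
Vcl: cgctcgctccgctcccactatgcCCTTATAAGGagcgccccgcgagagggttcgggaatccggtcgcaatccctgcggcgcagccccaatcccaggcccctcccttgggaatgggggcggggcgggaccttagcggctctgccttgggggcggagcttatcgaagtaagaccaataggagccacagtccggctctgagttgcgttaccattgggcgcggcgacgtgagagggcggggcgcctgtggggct

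As a check of the labels, the brightest Thoc5 probe stood at -2.79 (log2, THOC5-depleted minus control) in the unstimulated channel and at -2.40 after serum. In unstimulated control cells, 10 of 10 fibroblast markers were well above background. So were 3 of 4 epithelial, 3 of 4 endothelial and 2 of 4 blood cell markers. The summed signals of these lists were 486610, 160, 1013 and 269, in that order. All 20 probes of the 10 genes were well above background in all 4 channels. None of their spots was an outlier, and 0 spots were saturated on either array. Between the 10 spots of a replicated probe, the median SD of the log2 ratio was 0.0282 for control and 0.0308 for THOC5-depleted cells. For a difference of the log2 ratios of single spots on both arrays, this gives an SD of 0.0418, which covers printing and scanning error only. Between probes of a gene, the pooled SD of that difference was larger, at 0.227, over Srf, Actg1, Tpm1 and Vcl, the genes with several probes.

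After serum, 3 of the 10 genes rose in control cells, namely Srf, Actg1 and Cnn1, and only Srf rose in THOC5-depleted cells. With the mean over probes no gene rose in THOC5-depleted cells, Srf being at 0.54 (log2), and with normexp and loess 3 did, along with 4 in control cells. Over all genes, 6.71% of 18770 measured rose in control cells, and 3.43% of 18531 rose once THOC5 was depleted. None of the 10 genes fell on either array, while 5.82% and 1.55% of all genes did so. The median log2 serum ratio of the 10 genes was 0.32 without and 0.01 with THOC5 depletion, and that of all genes was -0.02 and -0.01. In the values that follow, a signal is the processed intensity of the brightest probe of the gene. Signals are comparable between the channels of an array and were not scaled between arrays.

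Srf itself had the highest serum ratio of the 10 genes on both arrays, although without dye normalization it was at 0.97 (log2) in THOC5-depleted cells, below Actb at 1.02 and Actg1 at 1.13. Its processed signal went from 4191 to 10416 in control cells and from 2312 to 4363 in THOC5-depleted cells. The stimulated control channel was the highest of the 4, and the unstimulated THOC5-depleted channel the lowest. The ratio was 2.48-fold (log2 1.31) in control cells and 1.89-fold (log2 0.92) in THOC5-depleted cells. A second probe, which starts at base 2515 of the listed transcript and not at base 3877, went from 1727 to 3027 and from 1327 to 1477. There the log2 ratio was 0.81 in control and 0.15 in THOC5-depleted cells, so both probes showed a higher serum ratio in control cells, by 0.40 and 0.66. The brighter probe is given in mm9 at chr17:46683788-46683795 and the other at chr17:46685306-46685365, both on the minus strand. The first span covers 8 bases of a longer probe. No mm9 annotation was used, so exons and untranslated regions are not named for these or the other probes.

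The cytoplasmic actins form the filaments of non-muscle cells. Beta-actin (Actb) had signals of 106837 and 159711 in control cells before and after serum, and of 121555 and 156017 in THOC5-depleted cells. Both stimulated channels were above both unstimulated ones. The ratio was 1.495-fold (log2 0.58) in control cells, just under the limit, and 1.28-fold (log2 0.36) in THOC5-depleted cells. Its call depends on the processing, since it was past the limit on both arrays with normexp and loess (log2 0.77 and 0.60) and without dye normalization (1.21 and 1.02). Gamma-actin (Actg1) went from 80299 to 145407 in control cells and from 92457 to 137474 in THOC5-depleted cells, by its brightest probe. The log2 ratios of that probe were 0.86 and 0.57, and Actg1 rose by 1.81-fold in control cells and was just under the limit in THOC5-depleted cells, at 1.49-fold. That second call depends on the processing, since the log2 ratio in THOC5-depleted cells was 0.72 with normexp and loess and 1.13 without dye normalization, both past the limit, and 0.30 as the mean over probes.

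**Figure D1:**
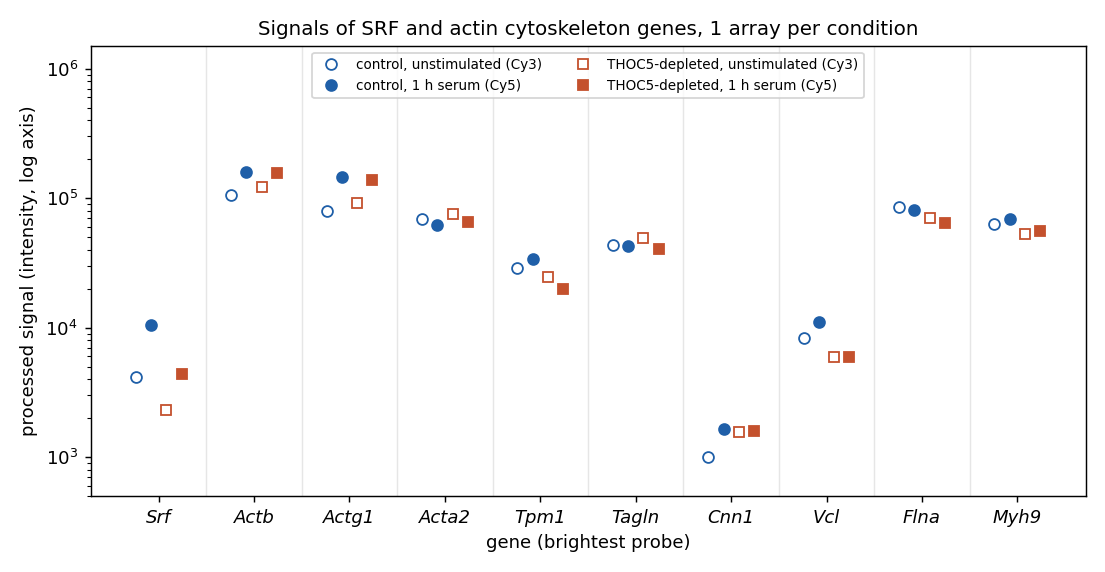
Processed signals (intensity, log axis) of the brightest probe of each of the 10 genes, with open symbols for unstimulated and filled symbols for serum-stimulated cells, blue circles for the control and red squares for the THOC5-depleted array (1 array each, so no error bars). Signals were not scaled between arrays, and Srf went from 4191 to 10416 in control and from 2312 to 4363 in THOC5-depleted cells, while Acta2 and Flna were a little lower after serum on both arrays, which turned to higher without dye normalization.

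The 5 probes of Actg1 are described as 2 sets by position, a split made after their values were seen. The 3 probes that start at bases 624 to 672 of the listed transcript gave log2 serum ratios of 0.57 to 0.79 in control cells and of 0.09 to 0.11 in THOC5-depleted cells. The 2 probes that start at bases 1723 and 1841 gave 0.86 to 1.00 and 0.57 to 0.61. The downstream set was above the upstream set on both arrays, and in THOC5-depleted cells the upstream set was near 0. The brightest probe, used for the counts, belongs to the downstream set. The upstream probes overlap and are not independent readings: those starting at bases 662 and 672 share 50 bases of the genome and differ at 4 of them. They therefore cannot both match mm9 in full, and which of them does was not determined. The stretch that holds 3 of these differences is printed 5′ to 3′ because coding sequences of actins are closely alike, with the differing bases in capitals (mm9, chr11:120208391-120208420, minus strand). Binding of other actin transcripts to these probes was not tested.
Actg1 probe from base 662: actgctgaGagggaaattgttcAtTacata
Actg1 probe from base 672: actgctgaAagggaaattgttcGtGacata

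Smooth muscle actin (Acta2), a filament actin of myofibroblasts and smooth muscle, had signals of 69021 and 62300 in control cells and of 76136 and 65216 in THOC5-depleted cells. Each stimulated channel was below its unstimulated channel. The log2 serum ratios were -0.15 and -0.22, as means over 10 spots with SDs of 0.0301 and 0.0224. The control spots ranged from -0.20 to -0.11 and the THOC5-depleted spots from -0.27 to -0.19, and these ranges overlap. The direction of Acta2 depends on the dyes, since both ratios were positive without dye normalization (0.26 and 0.25).

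Tropomyosin 1 (Tpm1), which lies along actin filaments, had signals of 28830 and 33783 in control cells and of 24524 and 19748 in THOC5-depleted cells. The stimulated channel was above the unstimulated one in control and below it in THOC5-depleted cells, with log2 ratios of 0.23 and -0.31. Its other 4 probes report several listed transcripts. Over all 5 probes the log2 ratio ranged from 0.11 to 0.71 in control and from -0.31 to 0.12 in THOC5-depleted cells. The probe that starts at base 659 had the largest gap between the arrays of all 20 probes, with log2 ratios of 0.71 and -0.12 and signals of 1514, 2472, 1141 and 1049 in the same order of channels. Probes of Tpm1 that start at bases 1051 and 1065 overlap and gave log2 ratios of 0.11 and 0.15 in control cells, against -0.10 and -0.04 when THOC5 was depleted.

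Transgelin (Tagln), an actin-binding protein of smooth muscle and stimulated fibroblasts, had signals of 43322 and 42799 in control cells and of 49271 and 40772 in THOC5-depleted cells. In control cells both channels were nearly equal, while in THOC5-depleted cells the stimulated channel was lower. The log2 ratios were -0.02 and -0.27, and both turned positive without dye normalization (0.33 and 0.11), the first also with normexp and loess (0.02). Calponin 1 (Cnn1), which binds actin and tropomyosin in smooth muscle, went from 1004 to 1658 in control cells and from 1565 to 1593 in THOC5-depleted cells. Of its 4 channels, the unstimulated control channel stood alone below the other 3. Cnn1 rose by 1.65-fold (log2 0.72) in control cells and its ratio was 1.02-fold (log2 0.03) in THOC5-depleted cells.

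Vinculin (Vcl), which couples adhesion sites to actin, had signals of 8358 and 11160 in control cells and of 5929 and 5922 in THOC5-depleted cells. In control cells the stimulated channel was higher, by less than the limit, and in THOC5-depleted cells the channels were nearly equal. The log2 ratios were 0.42 and -0.00, and a second probe, starting at base 3009, gave 0.46 and 0.17. The second value of the brighter probe has no settled sign, since it was above 0 with normexp and loess (0.03) and without dye normalization (0.09). Filamin A (Flna), an actin crosslinker, had signals of 86231 and 80755 in control cells and of 70962 and 63834 in THOC5-depleted cells. Its log2 ratios of -0.09 and -0.15 turned positive without dye normalization (0.44 and 0.36) and with normexp and loess (0.04 and 0.01). The heavy chain of non-muscle myosin IIA (Myh9) had signals of 63465 and 69426 in control cells and of 53012 and 55504 in THOC5-depleted cells. Its log2 ratios were 0.13 and 0.07, but 0.61, past 1.5-fold, and 0.49 without dye normalization.

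**Figure D2:**
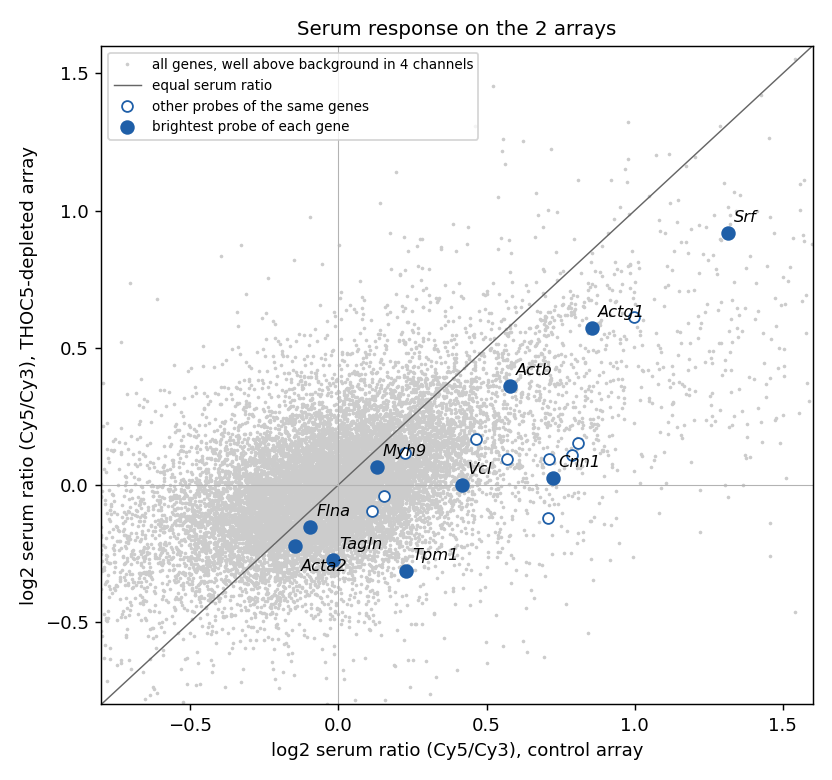
Log2 serum ratio (Cy5 over Cy3) on the control array (x axis) against the THOC5-depleted array (y axis) for all genes (grey), the brightest probe of the 10 genes (filled) and their other probes (open), with the line of equal ratios and with axes cut at -0.8 and 1.6. All 20 probes lie below the line, from 0.0581 for Flna to 0.828 for a Tpm1 probe, and the signs of the ratios of Acta2, Tagln and Flna depend on dye normalization.

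Set against each other, the serum ratio was higher in control than in THOC5-depleted cells for 10 of 10 genes and for 20 of 20 probes, while this held for 48.8% of 17199 genes measured in all 4 channels. The median difference of the log2 ratios, control minus THOC5-depleted, was 0.27 over the 10 genes and -0.01 over all genes. The differences ran from 0.06 for Flna, Myh9 at 0.06 and Acta2 at 0.08, through Actb at 0.22, Tagln at 0.26, Actg1 at 0.28, Srf at 0.40, Vcl at 0.42 and Tpm1 at 0.54, to 0.70 for Cnn1. Of the 9 genes whose brightest probe is a single spot, 7 differed by more than 2 times the SD between spots, and Flna and Myh9 did not. The difference of Acta2, between means of 10 spots, had an SE of 0.0119 from its spots, but was 0.0051 with normexp and loess and 0.0124 without dye normalization. The pooled SD between probes was exceeded by 6 of the 10 differences, not by those of Actb, Acta2, Flna and Myh9. That SD came from Srf, Actg1, Tpm1 and Vcl alone, some of whose probes overlap, and could not be measured for the other genes. By the brightest probe only Cnn1 passed 1.5-fold, with a ratio 1.62-fold higher in control cells. No gene passed it in the other direction, against 3.77% and 4.06% of all genes. Over all 20 probes 5 passed it, the others being of Srf, Actg1 and Tpm1. Among the 4 signals of Cnn1, the unstimulated control signal was the one apart from the rest.

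Ratios of all genes were spread more widely on the control array, where the median absolute deviation of the log2 serum ratio was 0.198, than on the THOC5-depleted array, where it was 0.142. Scaling both arrays to one spread left all 10 differences above 0 but brought their median to 0.12, Srf to 0.04, Actg1 to 0.05, Myh9 to 0.03 and Actb to 0.07, while Cnn1 stayed at 0.59, Tpm1 at 0.57 and Vcl at 0.36. The 10 spike-in probes, which carry RNA added in set amounts, differed by 0.24 (log2) between arrays, and centring on them moved every difference up by that amount. The share this spread or offset has in the differences was not tested.

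**Figure D3:**
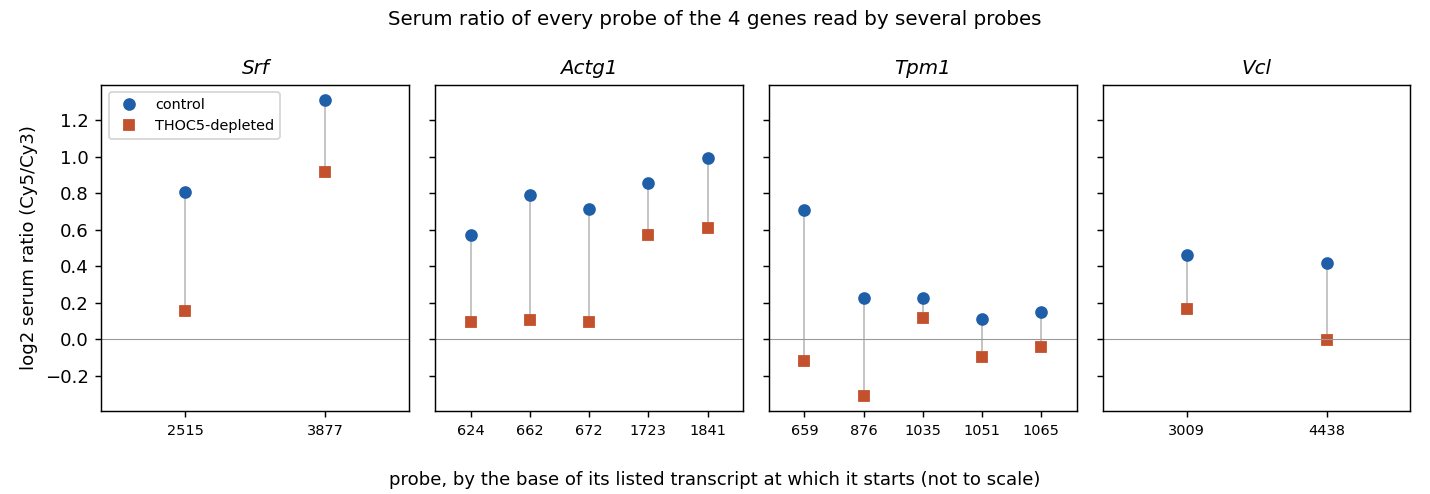
Log2 serum ratio (Cy5 over Cy3, y axis) of every probe of Srf, Actg1, Tpm1 and Vcl on the control (blue circles) and THOC5-depleted array (red squares), ordered by the base of the listed transcript at which the probe starts (x axis, not to scale). The Tpm1 probes have different listed transcripts, so their order is not that along the gene. The Actg1 probes at bases 1723 and 1841 lie in the other order by their mm9 spans. The upstream probes of Actg1 were at 0.09 to 0.11 in THOC5-depleted cells and the downstream ones at 0.57 to 0.61, and the sign of the lower Vcl point at base 4438 changed with the normalization.

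Signals were then compared across the arrays, after limma's normexp, loess and Aquantile normalization, to ask at which time the conditions differed. These comparisons use the same 4 channels as the ratios above and are no separate evidence. In unstimulated cells only Cnn1 was past 1.5-fold, at 1.88-fold higher in THOC5-depleted cells (log2 0.91), and no gene was lower by that much. Over all genes, 3.19% were higher and 2.97% lower. After serum no gene was higher by 1.5-fold, and 2 were lower, Srf at -0.88 and Vcl at -0.59 (log2), the latter at the limit with 1.503-fold. Among all genes 3.88% were higher and 3.55% lower.

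Srf was the lowest of the 10 genes in THOC5-depleted cells at both times, at -0.48 (log2) unstimulated and -0.88 stimulated. Its second probe gave -0.05 and -0.73, so the 2 probes lay closer to each other after serum than before it. Vcl was at -0.16 and -0.59 by one probe and -0.16 and -0.42 by the other. Tpm1 was at 0.00 in unstimulated and -0.54 in stimulated cells, with its 5 probes spread from -0.90 to 0.05 after serum. Acta2 at 0.26 and 0.25, Tagln at 0.41 and 0.20, and Cnn1 at 0.91 and 0.21 were higher in THOC5-depleted cells at both times. Smooth muscle also expresses these genes, which were grouped after their values were seen. Beside these, the summed signal of 8 smooth and striated muscle markers, 3 of them (Myh11, Myocd and Myog) not above background in any channel, was, divided by the 75th percentile of the channel, 0.575 unstimulated and 0.804 stimulated in control cells and 0.808 and 0.714 in THOC5-depleted cells. Of 10 fibroblast markers, 2 were lower by 1.5-fold or more in unstimulated THOC5-depleted cells, Pdgfra at -1.23 and Col3a1 at -1.14 (log2), named after their values were seen, against 2.97% of all genes. The list ran up to 0.28 for Thy1, with a median of -0.21. After serum its median was -0.28 and 1 of 10 was lower by that much, Col3a1 at -0.81, with Pdgfra at -0.39. The summed signal of the fibroblast markers, divided in the same way, was 458 in control and 465 in THOC5-depleted cells unstimulated. Stimulated, it was 423 and 413. Tnnt2, a gene of striated muscle, made up most of the muscle sum. Of further genes that smooth muscle expresses, Actg2 and Myl9 were higher at both times and Lmod1 and Mylk, near background, lower at both. Smtn was at 0.25 unstimulated and -0.26 stimulated, and these further genes were named after their values were seen. In a list of other actin cytoskeleton genes, 4 of 31 were higher in unstimulated THOC5-depleted cells by 1.5-fold or more, Actg2 (1.08), Fhl1 (0.89), Wdr1 (0.67) and Acta1 (0.65), and 0 were lower, against 3.19% and 2.97% of all genes. After serum 3 of 30 were higher, Actg2 (0.97), Fhl1 (0.87) and Myl9 (0.65), and 3 were lower, Flnc (-0.77), Lima1 (-0.66) and Cnn3 (-0.62), against 3.88% and 3.55% of all genes. These genes were named after their values were seen. The part of other cells in these differences was not tested, and in RNA of whole cultures fewer cells of a type and less RNA per cell cannot be told apart. The cytoplasmic actins were at 0.15 (Actb) and 0.19 (Actg1) unstimulated, and at -0.03 and -0.02 stimulated, where both turned positive with scaling to the 75th percentile and with Rquantile. These Actg1 values are those of the brightest, downstream probe, and the 3 upstream probes were at -0.15, -0.56 and -0.36 after serum. Flna at -0.22 and -0.25 and Myh9 at -0.09 and -0.16 were lower at both times, though their unstimulated values were 0.02 and 0.04 with scaling to the 75th percentile. The median of the 10 genes was 0.08 unstimulated and -0.09 stimulated, and that of all genes was -0.00 and 0.00. With scaling to the 75th percentile, the stimulated median of the 10 genes turned to 0.08.

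**Figure D4:**
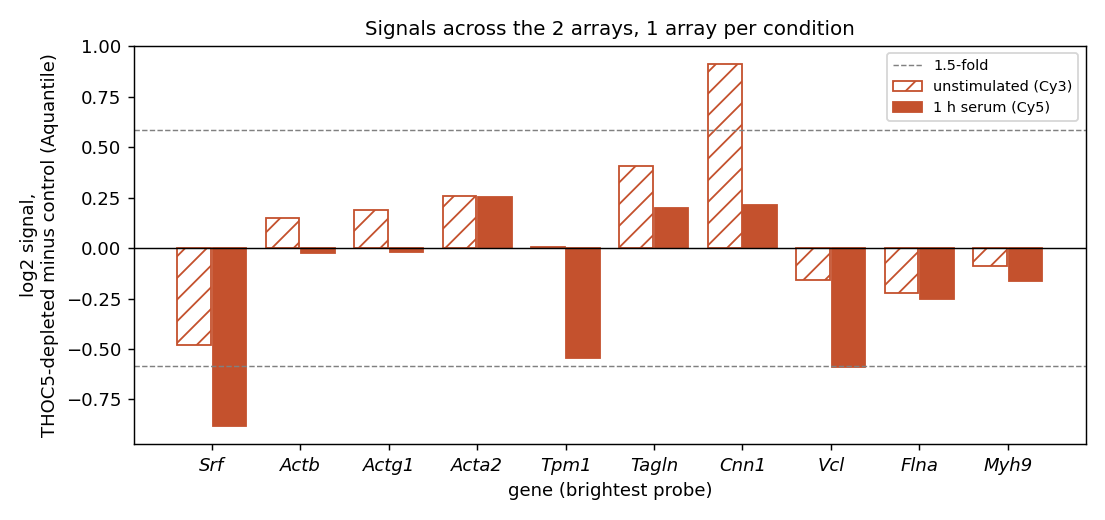
Log2 signal in THOC5-depleted minus control cells (y axis, limma Aquantile) for the 10 genes in unstimulated (hatched bars, Cy3) and serum-stimulated cells (filled bars, Cy5), 1 array per condition, with dashed lines at 1.5-fold. Cnn1 unstimulated (0.91) and Srf (-0.88) and Vcl (-0.59) stimulated are past the lines, and with scaling to the 75th percentile the small stimulated bars of Actb and Actg1 and the unstimulated ones of Flna and Myh9 change sign.

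The rest of the pathway was read from lists of its known parts. None of the SRF cofactors passed 1.5-fold in either direction on either array, with 5 of 6 measured and Myocd, the muscle cofactor, not above background. The shares over all genes are those given for the 10 genes. The serum ratio was higher in control cells for 2 of the 5, against 48.8% of all genes, with a median difference of -0.07. Their log2 serum ratios ran from -0.41 for Mkl1 to 0.13 for Elk1 in control cells and from -0.29 for Elk4 to 0.12 for Mkl2 in THOC5-depleted cells.

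Of 33 other genes of the actin cytoskeleton, 30 were measured on each array. In control cells 3 rose and 1 fell, and in THOC5-depleted cells 0 rose and 0 fell, with medians of 0.17 and 0.00. The shares over all genes were, as above, 6.71% and 5.82% in control and 3.43% and 1.55% in THOC5-depleted cells. The genes that rose were Flnc (filamin C, log2 1.13), Smtn (smoothelin, 0.72) and Lima1 (which crosslinks filaments, 0.61), and Ablim1 (an actin-binding LIM protein) fell by 0.60. Smtn and Lima1 were named after their values were seen. Among genes well above background in all 4 channels, the highest ratio in THOC5-depleted cells was that of Pdlim7, at 0.37, and the lowest that of Ablim1, at -0.36. The serum ratio was higher in control cells for 21 of the 28 genes measured in all channels, against 48.8% of all genes, and also for 21 after scaling to one spread, with a median difference of 0.15 against 0.12 after scaling. Flnc alone of the 28 passed 1.5-fold, at 0.83, where 3.77% of all genes did so.

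The immediate early genes, known targets of SRF with its ternary complex factors, had larger serum ratios. All 9 rose on both arrays, against 6.71% (control) and 3.43% (THOC5-depleted) of all genes, with median log2 ratios of 3.94 and 3.97. Most of the 9 are in the paper's list of serum-inducible genes, which was picked from these same arrays. Their rise in control cells is therefore no separate evidence. For Egr3, named after its values were seen, the unstimulated signals were not well above background, so its ratio is only a bound. Fos, a component of AP-1, was highest at 5.71 (control) and 6.55 (THOC5-depleted), and Mcl1, an antiapoptotic factor, lowest at 1.00 and 0.70. The serum ratio was higher in control cells for 5 of the 8 genes measured in all channels, against 48.8% of all genes, and for 2 of 8 after scaling to one spread. By 1.5-fold or more, it was higher in control cells for Junb (1.37), Nr4a1 (1.00) and Egr2 (0.87) and lower for Fos (-0.84), against 3.77% and 4.06% of all genes. The first 3 were named after their values were seen.

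**Figure D5:**
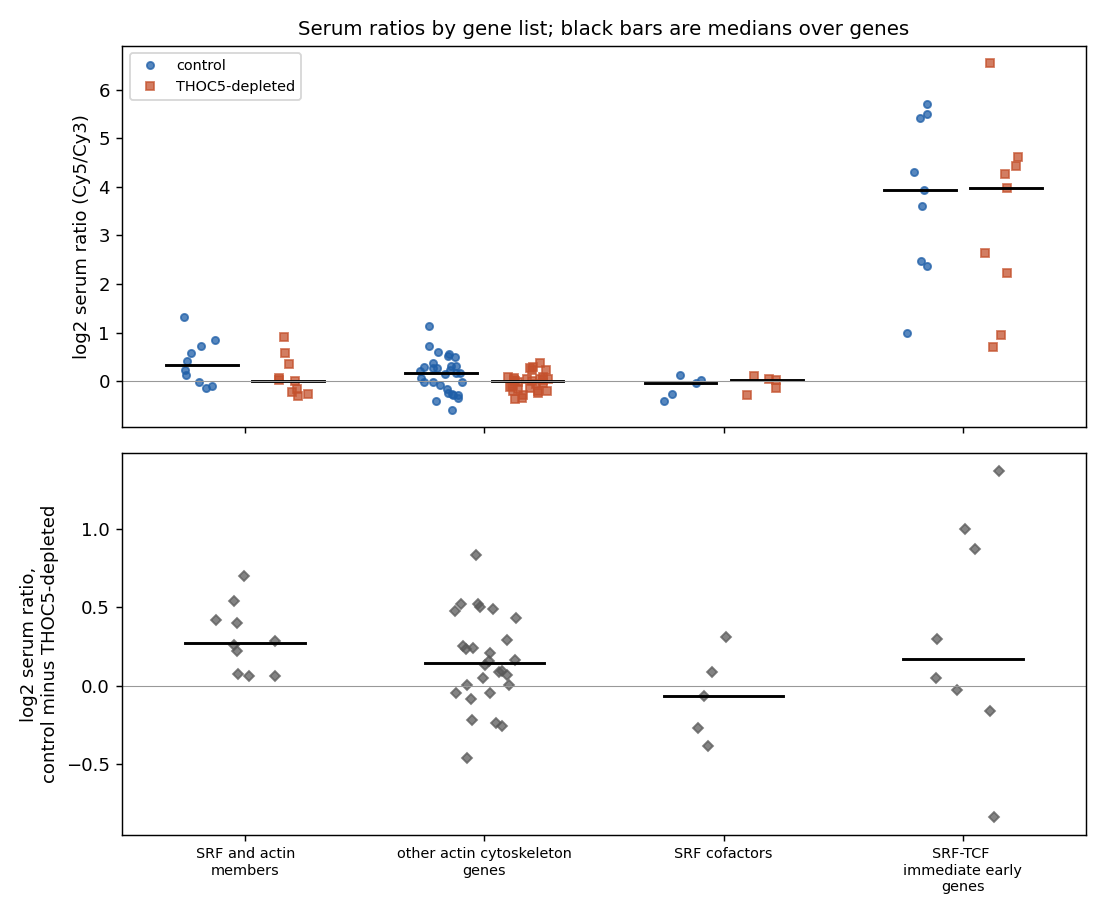
Top, log2 serum ratio (Cy5 over Cy3) on the control (blue circles) and THOC5-depleted array (red squares) for the 10 genes and 3 pathway lists, 1 point per gene and a black bar at the median. Bottom, the difference of the ratios, control minus THOC5-depleted: the medians are 0.27 for the 10 genes and 0.15 for other actin cytoskeleton genes, and after scaling to one spread 0.12 for either, and 0.17 for immediate early genes, which that scaling turned to -0.90.

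The genes most like Srf were sought among 11152 genes outside all lists with every signal above 200, by the distance over the serum ratio in control cells, that in THOC5-depleted cells and the unstimulated difference. Siah2, which encodes a ubiquitin ligase, was nearest at a distance of 0.136, with values of 1.25, 0.82 and -0.41. Spty2d1 followed at 0.347, and Socs1, an inhibitor of cytokine signalling, at 0.376. These distances rest on 3 values from 2 arrays and on the brightest Srf probe, and the second Srf probe lay 1.01 from it on the same values, farther than any of these genes.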

How the data were processed

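The genes and the gene lists were chosen with earlier results of these data known. The authors deposited 1 scanner text file per array, made with Agilent Feature Extraction 10.7.3.1 and placing probes on mm9, and a table of values for the series. Per the file headers, the deposited processed signal is an intensity after background subtraction and linear and LOWESS dye normalization within the array, with flags for outlier, saturated and well above background spots. The authors' log10 ratios in the deposited series table equalled the size of the scanner's log10 ratio within 1e-06 for 100% of 16671 features (control) and 16245 features (THOC5-depleted). Its medians are 0.0279 and 0.0222, it holds 0 negative values and so lacks the sign, and it served as an alternative with the scanner's sign. Cells were starved of serum before the stimulus, per the methods.

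Outlier spots were left out, spots of a probe were averaged as log2 values, and the brightest probe over the 4 channels stood for a gene. Log2 serum ratios are Cy5 over Cy3 processed signals, for genes well above background in at least 1 channel, and differences between arrays need all 4. Signals across arrays were normalized with limma 3.58.1 (normexp with an offset of 50, loess, Aquantile). Named genes are all 10 genes with all probes, Thoc5, the genes with the highest and lowest ratio of each pathway list on each array, and the 3 genes nearest to Srf. A further list of genes is not reported here. Arrays have no read depth, and their number, 1 per condition, limits the precision. The alternatives were normexp with loess on mean and background signals, no dye normalization, the series table, a minimum signal of 200, the mean over probes, outlier spots kept, limits of 1.3-fold and 2-fold, spike-in centring, scaling to one spread, and other scalings across arrays. The procedure was tested on simulated data. Software was Python 3.11.15, matplotlib 3.10.9, pandas 2.3.3, numpy 2.4.6 and, for limma, R 4.3.3.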

Additional observations from a re-analysis of the deposited data

Results flagged for a closer look

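The serum ratios of Tpm1 and Vcl had opposite signs on the arrays by their brightest probes, and these differences between conditions were not tested, since there was 1 array each. The log2 ratio of Tpm1 was 0.2287 in control and -0.3125 in THOC5-depleted cells. That of Vcl was 0.4171 and -0.0016, the second too close to 0 to carry a sign.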

How the results depend on the processing

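The serum ratio was higher in control cells for 10 of 10 genes under all 8 alternatives tried for that comparison, but 3 of these repeated the values and spike-in centring moved all of them up alike. Under the other 4, the lowest value was 0.0051, for Acta2 with normexp and loess. Without dye normalization, the median log2 serum ratio of the 10 genes was 0.585 (control) and 0.302 (THOC5-depleted), 5 and 3 genes rose, and 2 differences passed 1.5-fold. With normexp and loess 3 genes rose in THOC5-depleted cells. With the mean over probes 0 rose there, and 1 gene was lower across arrays after serum. A limit of 2-fold left 1 gene risen in control and 0 in THOC5-depleted cells, 0 differences, 0 genes higher unstimulated and 0 lower stimulated. A limit of 1.3-fold gave 5 and 2 risen, 4 differences, and 2 higher and 1 lower unstimulated. Spike-in centring gave a median difference of 0.514 with 4 past the limit. Scaling to the 75th percentile gave an unstimulated median of 0.256 and turned the stimulated one from -0.0938 to 0.0769, and Rquantile left 1 gene lower after serum. The cause of these changes was not tested. In all, 88 summary values moved by less than the spread between probes, or by no more than 1.5 times for counts. They include the stimulated median that changed sign. The same held for 267 of 300 values of single genes. The series table, the minimum signal and keeping outlier spots could not change any value of the 10 genes. No spot of these genes was an outlier, their signals all passed the minimum, and the series table equals the scanner's ratios. The part of both counts that comes from these alternatives is therefore no sign of stability. No paired analysis was possible because each condition had 1 array without replicate numbers, and for the same reason no array could be left out. Signal over background did not limit these genes.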
